A study of Mus musculus with 2 samples.

Results

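Hepatic stellate cells and fibroblasts, the matrix-producing mesenchymal cells of the liver, were picked out of 2 droplet single-cell libraries of mouse liver by their transcripts. One library is labelled SLC22A18-/- and is called knockout-labelled here. The other is labelled SLC22A18+/+ and is called wild-type. A barcode, the tag of 1 droplet, was taken as a member when it held at least 300 genes, at most 20% mitochondrial UMIs (unique molecular identifiers, 1 per captured transcript), and at least 5 UMIs over the stellate and fibroblast genes Reln, Lrat, Colec11, Dcn and Ecm1 with at least 2 of these genes seen. The endothelial and leukocyte genes Stab2, Ptprb, Ptprc and Clec4f had to sum to at most 2, the hepatocyte genes Cps1, Abcb11, Ghr and Mlxipl to at most 20, and the mesothelial genes Msln and Upk3b to 0. This rule gave 637 members of 23889 barcodes past the gene and mitochondrial limits, 283 in the knockout-labelled library and 354 in the wild-type library. With the hepatocyte sum at most 5, 201 and 274 members were left.

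The study, by its title, concerns an imprinted gene, Slc22a18, in a syndrome of allergy, small stature and liver fat, and a signalling axis of β-catenin and Ascl2. Neither label gives the strain, age, sex, number of animals or deleted exons, and nothing says how many livers were pooled. There was 1 library per genotype, so no test was possible. Every interval below is a 95% interval that covers counting error only, and genotype, animal, dissociation and loading cannot be told apart.

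Stellate cells lie between the sinusoidal endothelium and the hepatocytes. They store vitamin A as retinyl esters, contract around the sinusoid, and send hepatocytes and endothelium growth factors such as hepatocyte growth factor and R-spondins. On injury they become collagen-secreting myofibroblasts. Portal fibroblasts and vascular smooth muscle surround the larger vessels and ducts and share much of the matrix programme with them.

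Members made up 2.47% (exact Clopper-Pearson interval 2.19 to 2.77) of the barcodes past the limits in the knockout-labelled library and 2.85% (2.56 to 3.16) in the wild-type library. The intervals overlapped. The members held 1254545 and 1473944 UMIs, with a median of 2828 UMIs and 1603 genes per member in the knockout-labelled library and 2626.5 UMIs and 1496 genes in the wild-type library. Many barcodes with stellate transcripts were left out by the limits: 902 and 1098 barcodes carried at least 5 choosing UMIs from at least 2 genes, and 619 and 744 of them were not members. Of these, 536 and 658 exceeded the endothelial and leukocyte limit and 261 and 291 the hepatocyte limit. They held a median of 20891 and 19504 UMIs, far more than the members. Of the 240 and 289 barcodes with at least 50 choosing UMIs, 80 and 99 were members, and 128 and 154 failed the endothelial and leukocyte limit alone. The share of members thus depends on that limit. At the edge of the rule, 8 and 19 members had a choosing sum of exactly 5, while 13 and 21 barcodes with a sum of 4 met every other limit and stayed outside. The 22 stellate markers that the rule did not use summed to 4274 counts per 1000000 UMIs (CPM) in the 8 knockout-labelled members at a sum of 5 and to 2323 CPM in the 13 barcodes at 4, and to 9710 and 7647 CPM in the wild-type library. Scrublet, a doublet caller, marked 304 (2.65%) and 429 (3.45%) barcodes, of which 0 and 2 were members. The libraries shared 38 barcode sequences, and 1 wild-type member carried such a barcode.

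**Figure D1:**
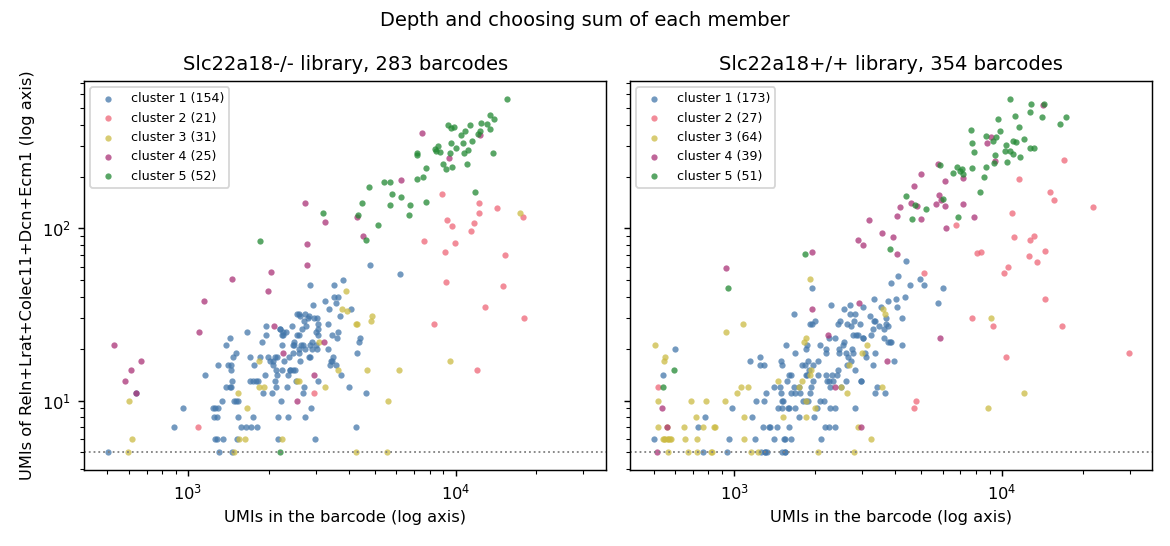
Each point is 1 member barcode, with its total UMIs on the horizontal axis and its sum over the 5 choosing genes on the vertical axis (both log axes), in the knockout-labelled library (left, 283 barcodes) and the wild-type library (right, 354 barcodes). Colours give the 5 clusters of members, and the dotted line is the minimum sum of 5. Cluster 5 (green) lies at high depth and high choosing sums, cluster 2 (red) at high depth and lower sums, and the wild-type part of cluster 3 (yellow) reaches the lowest depths.

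Stellate identity was strong and alike in both libraries. All 22 stellate markers outside the rule were measured. Together they reached 14462 CPM in knockout-labelled members and 14653 CPM in wild-type members. In 5 comparison classes picked by their own marker sums the same list reached 71.2 to 275 CPM in hepatocytes, endothelial cells, Kupffer cells and other leukocytes, and 468 and 826 CPM in the 20 and 15 mesothelial barcodes. The hepatocyte, endothelial, Kupffer and other leukocyte classes were limited to few choosing UMIs, so they hold little stellate RNA by construction. The mesothelial class had no such limit, and the choosing genes summed to 621 and 934 CPM there. Bmp5, a bone morphogenetic protein, was at 1165 and 1045 CPM in members and at 1.69 CPM in the highest class, other leukocytes. The transcription factor Tcf21 was at 322 and 370 CPM against 1.22 CPM in Kupffer cells, and the factor Lhx2, which restrains stellate activation, was at 243 and 212 CPM against 2.75 CPM. Desmin (Des), the classical rodent stellate filament, was at 161 and 175 CPM against 2.29 CPM in Kupffer cells. Each of these markers stood far above every comparison class in both libraries. The exception in level was Gfap, a glial filament used to stain stellate cells, with 14 and 15 UMIs over all members. Hepatocyte growth factor (Hgf) and cytoglobin (Cygb) were less restricted, with 138 CPM of Hgf in endothelial cells and 113 CPM of Cygb in mesothelial cells against member levels of 1275 and 351 CPM over both libraries.

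Since the choosing genes define the members, their values are a description. Reln, a secreted glycoprotein, held 3908 and 4799 UMIs, and Dcn, the proteoglycan decorin, 11267 and 13483. Colec11, a collectin, held 1977 and 2184 UMIs, and the matrix protein Ecm1 2656 and 3477. Lrat, the enzyme that esterifies retinol for storage, held 888 and 775 UMIs. Of the 5, Lrat differed most, with 708 against 526 CPM, a ratio of 1.35 (1.22 to 1.48). The ratios of Reln and Dcn were 0.957 and 0.982.

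Other genes of at least 500 UMIs that the rule did not use were as restricted to the members as the classical markers. Nrxn3, a synaptic adhesion protein, was at 2350 and 2191 CPM and at 7.78 CPM in the highest class, endothelial. The ephrin receptor Epha7 was at 695 and 721 CPM against 2.18 CPM in hepatocytes, the proteoglycan lumican (Lum) at 590 and 664 CPM against 2.75 CPM in Kupffer cells, and Lrrc4c, another synaptic adhesion protein, at 689 and 680 CPM against 3.38 CPM in other leukocytes. The nuclear receptor gene Nr1h5 was at 603 and 620 CPM against 1.38 CPM in Kupffer cells. Neuronal adhesion genes thus stood beside matrix genes among the most member-restricted transcripts.

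**Figure D2:**
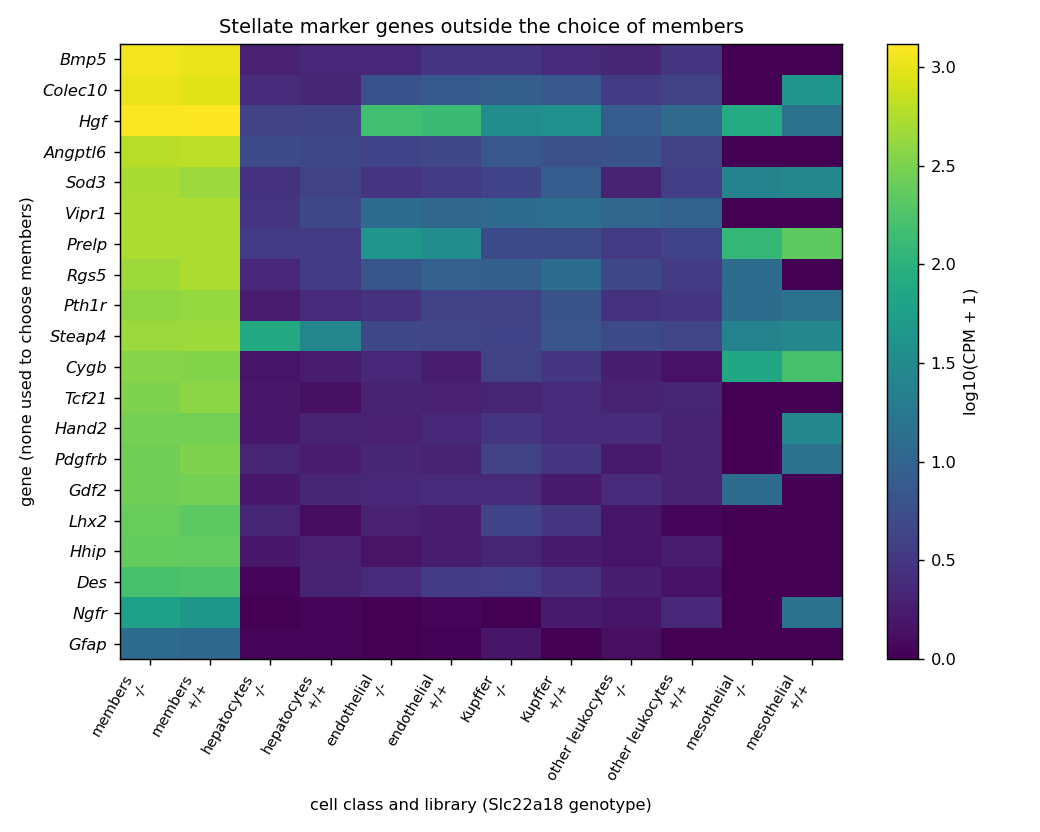
Colour gives the summed level, log10(CPM + 1), of 20 stellate markers that were not used to choose members (rows) in members and in 5 comparison classes of each library (columns, -/- for knockout-labelled and +/+ for wild-type). The 2 member columns stand above all other columns for nearly every gene and look alike, and Gfap is the dim row at the bottom.

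Hepatocyte RNA was present throughout the members, while the summed endothelial, Kupffer, leukocyte and mesothelial markers were low. The member rule limited Stab2, Ptprb, Ptprc, Clec4f, Msln and Upk3b, which are in those lists, more tightly than the hepatocyte genes. The low sums therefore follow in part from the choice of members. Albumin (Alb), the main hepatocyte plasma protein, gave UMIs in every member of both libraries, at 4786 and 4516 CPM. It was also seen in 99.9% and 100% of the other leukocytes, whose median depth was 3610 and 4184 UMIs, so albumin UMIs were present in cells that should lack it. The 10 hepatocyte markers summed to 7717 and 7305 CPM in members, against 26700 and 24793 CPM in hepatocytes, and the members of 1 cluster described further on came near the level of hepatocytes. The 8 endothelial markers summed to 206 and 311 CPM, the 8 Kupffer markers to 241 and 252 CPM, the 8 leukocyte markers to 43.8 and 97.7 CPM, and the 8 mesothelial markers to 22.3 and 10.2 CPM. Summed endothelial and leukocyte RNA was lower in knockout-labelled members, and all 6 endothelial markers measured lay below 0 in log2 ratio with a median of -0.50. Only 3 leukocyte markers were measured, and their median of -0.93 changed sign in 1 of 12 alternatives. In the clusters described further on, leukocyte markers summed to 17.3 and 181 CPM in cluster 3, 201 and 384 in cluster 4 and 41.6 and 40.2 in cluster 5. The part of endothelial and leukocyte RNA in the gene differences below was not tested.

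The libraries were compared gene by gene with a rule on size, called the size rule. A gene was called higher or lower when it had at least 50 UMIs over both libraries, a CPM ratio of at least 2 or at most 0.5 with an interval excluding 1, a UMI in at least 5% of members of the higher library, and a member level of at least 10% of the highest comparison class in at least 1 library. Of 7463 genes past the UMI, share and level limits, 21 (0.281%) were higher and 29 (0.389%) lower in knockout-labelled members. Over the 10827 genes with at least 20 UMIs, the median log2 ratio of knockout-labelled over wild-type was -0.01, and 5291 lay above 0. Gene lists are given by the same counts and median. Their measured genes had at least 20 UMIs, so some could not be called at any ratio. Those open to a call were 11 of 18 for retinoids, 24 of 30 for secreted signals and 11 of 14 for matrix turnover. They were 12 of 15 for basement membrane, 18 of 22 for myofibroblast activation and 16 of 18 for stellate transcription factors. Wnt and Hippo responders had 10 of 14, portal fibroblast markers 6 of 12 and lipid genes 10 of 17.

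The programme of vitamin A handling was similar in the 2 libraries. Of 18 measured genes of retinoid storage and turnover, 11 were open to a call and 0 passed the size rule. The median log2 ratio was -0.01. Aldh1a1, which oxidises retinal, was at 356 and 357 CPM. Rarb, a retinoic acid receptor that is itself a retinoic acid target, held 574 and 497 UMIs, a ratio of 1.36 (1.20 to 1.53), close to that of Lrat. Aldh1a3, another retinal dehydrogenase, held 48 and 30 UMIs, a ratio of 1.88 (1.17 to 3.07). Stra6, Cyp26a1, Crabp1 and Crabp2 had 0 UMIs in both libraries, which allows up to 3 UMIs in each.

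Members of both libraries carried the secreted signals for which stellate cells are known. Hgf held 1553 and 1925 UMIs and was seen in 85.9% and 78.2% of members. After thinning every member to 1528 UMIs, which left 240 and 270 members, Hgf was seen in 73.8% and 79.6%, against 0.709% and 1.08% of other leukocytes. The order of the libraries thus turned after thinning. Thinning changed both the depth and the set of members, as 43 and 84 shallower members were left out. Rspo3, an R-spondin that strengthens Wnt signalling at the central vein, held 985 and 1128 UMIs. The chemokine Cxcl12 held 2867 and 3124 UMIs and Bmp5 1462 and 1540 UMIs. Gdf2 and Bmp10, circulating ligands of the endothelial receptor Alk1, held 349 and 423 and 113 and 149 UMIs. Gdf10 held 256 and 298 UMIs. All 7 ratios lay between 0.891 and 1.12. Il34, a ligand of the macrophage receptor Csf1r, held 271 and 412 UMIs, a ratio of 0.773 (0.660 to 0.903). Of the 30 secreted signals measured, 0 passed the size rule in either direction and the median log2 ratio was -0.04. The log2 ratios ran from -1.20 to 1.48. In the cluster numbered 2 below, 4 of 27 measured signals were called lower, beside 59 of all 4914 genes measured there. Hgf was called lower in that cluster.

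Surface receptors were also close between the libraries. The angiotensin receptor Agtr1a held 842 and 941 UMIs, the endothelin receptors Ednra and Ednrb 398 and 461 and 538 and 645, and the parathyroid hormone receptor Pth1r 501 and 617. Vipr1, the receptor of vasoactive intestinal peptide, held 668 and 789 UMIs, and the fibroblast growth factor receptor Fgfr2 1948 and 2384. The platelet-derived growth factor receptors, whose ligands drive stellate proliferation, held 216 and 253 UMIs (Pdgfra) and 342 and 475 UMIs (Pdgfrb). Of 30 receptors measured, 0 passed the size rule, the log2 ratios ran from -0.43 to 0.42, and the median was -0.03.

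Matrix genes were high in both libraries. Type III collagen (Col3a1) held 5230 and 6319 UMIs, type I collagen 1912 and 2444 (Col1a1) and 1961 and 2339 (Col1a2), Col14a1 2474 and 2774, and the matrix glycoprotein Sparc 5791 and 7351. Of 25 fibrillar collagen and matrix assembly genes, 0 passed the size rule and the median log2 ratio was -0.04. The range was -0.55 for elastin (Eln), with 1017 and 1751 UMIs, to 0.33 for tenascin C (Tnc). Of 15 basement membrane genes 0 passed, with a median of -0.02. Of 14 measured genes of matrix turnover 0 passed, with a median of -0.11. Of 22 genes of myofibroblast activation 1 passed, osteopontin (Spp1), whose UMIs came almost wholly from 1 barcode, as described below. The median of that list was -0.01, with Acta2, the smooth muscle actin, at 676 and 650 UMIs.

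Clustering the members of both libraries together gave 5 groups. A cluster's leading genes come from the cells that were clustered and are a description. Cluster 1 held 154 and 173 members (54.4% and 48.9%). Its median was 2261 UMIs, and Malat1, a nuclear RNA, made up 4.47% of its UMIs against 1.28% to 2.77% in the other clusters. Its leading genes included the adhesion genes Lsamp and Adgrl3, and its 22 outside markers summed to 18175 and 19279 CPM. The immediate early genes summed to 955 and 984 CPM, which was the lowest of the 5 clusters.

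Cluster 5 held 52 and 51 members (18.4% and 14.4%) with a median of 9167 UMIs and a choosing sum of 273. Its leading genes were the chemokines Ccl2 and Cxcl10, the interferon-induced GTPase Iigp1, the lectin Fcna, and the interferon-induced Ifit1 and Ifit3, with the heat shock gene Hspa1b among the first 10. Immediate early genes such as Fos, Jun and Egr1 summed to 26831 and 23735 CPM. Its stellate markers outside the rule reached 16869 and 17584 CPM, near those of clusters 1 and 4. Cluster 4 held 25 and 39 members (8.83% and 11.02%) with leading genes Cd74, Gdf2 and Bach2 and a median mitochondrial share of 4.96%. Of its 100 Cd74 UMIs 93 were wild-type, and the top wild-type member for Cd74, an antigen-presentation gene of leukocytes, held 54.

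Cluster 2 held 21 and 27 members (7.42% and 7.63%) with a median of 11244 UMIs and was the fibroblast and contractile end of the population. It was led by the smooth muscle actins Acta2 and Actg2, the matricellular genes Ccn3 and Ccn5, the protease Mmp3 and the collagen Col15a1. Of the 676 and 650 Acta2 UMIs in members, 675 and 640 came from cluster 2. Fibrillar collagen and matrix genes summed to 57738 and 57015 CPM, against 5051 to 20506 CPM in the other clusters. Portal fibroblast markers summed to 10621 and 13761 CPM and smooth muscle markers to 10058 and 8072 CPM. The outside stellate markers were lowest there, at 5046 and 4993 CPM. Of its members, 19 of 21 and 21 of 27 held at least 3 UMIs summed over the fibroblast genes Dpt, Clec3b, Mfap4, Fbln1, Col15a1 and Cd34, 10 and 12 at least 3 UMIs summed over the contractile genes Myh11, Actg2, Cnn1 and Lmod1, and 8 and 8 both. The cluster was therefore mixed and was given no single name. By a rule of at least 3 UMIs of the whole portal fibroblast list with few Lrat, Reln, Colec11 and Ecm1 UMIs, 4 members (1.41%, 0.386 to 3.58) and 6 members (1.69%, 0.624 to 3.65) were fibroblast-like. By a rule of at least 5 UMIs over at least 3 genes of the whole smooth muscle list, Myh11 among them, 17 members (6.01%, 3.54 to 9.44) and 23 members (6.50%, 4.16 to 9.59) were smooth-muscle-like. Both shares had overlapping intervals. By the choice of members, every member held a UMI of Lrat, Reln, Colec11 or Ecm1, the genes that the fibroblast-like rule limits. The fibroblast-like share is therefore held down by the rules themselves and does not measure the abundance of fibroblasts. Cluster 2 held 1 of the 4 and 6 of the 6 fibroblast-like members and 12 of the 17 and 13 of the 23 smooth-muscle-like members. It also held 228880 of the 1254545 knockout-labelled and 317268 of the 1473944 wild-type member UMIs, which enter the summed values below.

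Cluster 3 held 31 and 64 members (10.95%, 7.57 to 15.2, and 18.1%, 14.2 to 22.5). It was led by Spp1 and by hepatocyte genes, Ttc36, Ass1 and Fabp1, and stayed unnamed. Hepatocyte markers summed to 23909 and 25599 CPM, near the level of hepatocytes themselves. Its wild-type members were shallow, with a median of 1082 UMIs against 3257 in the knockout-labelled library. The outside stellate markers still summed to 9401 and 9333 CPM, and the portal fibroblast markers to 2008 and 112 CPM.

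**Figure D3:**
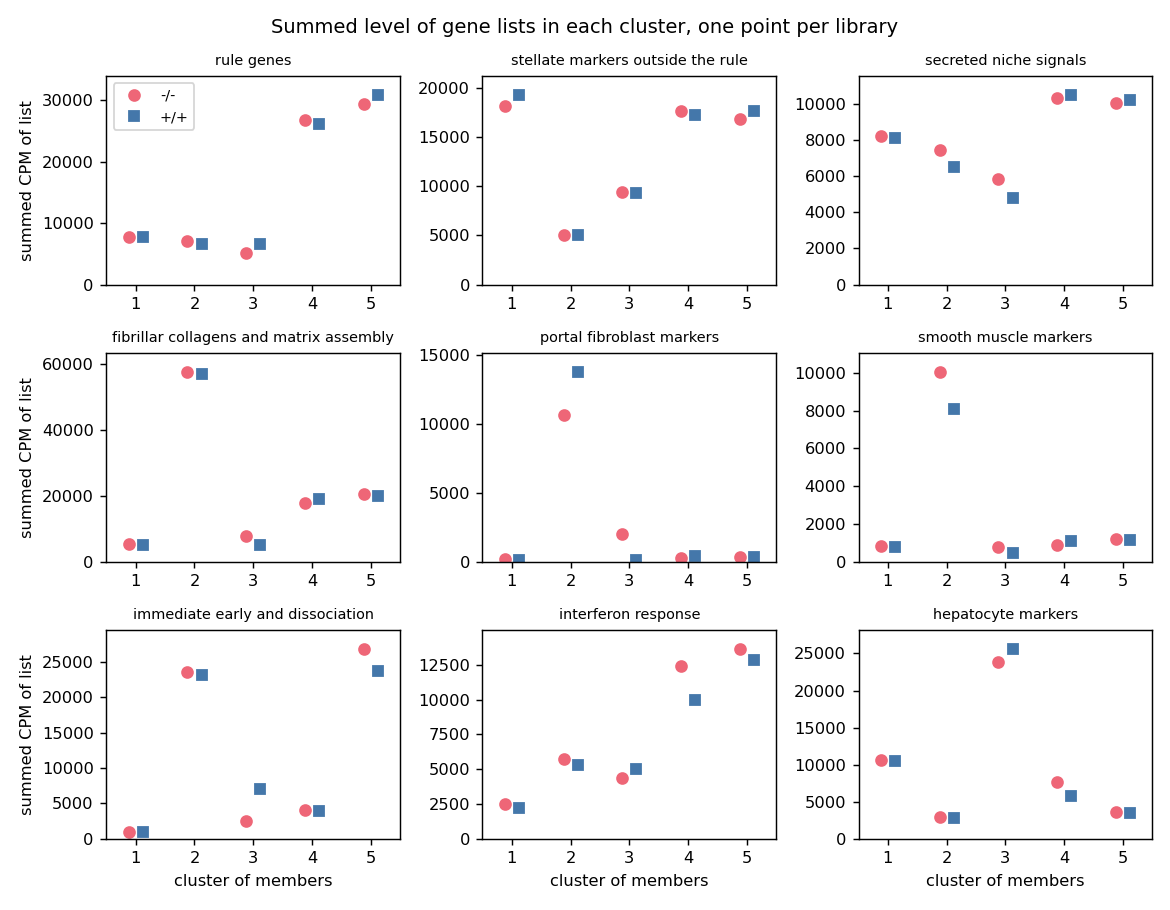
Each panel gives the summed CPM of 1 gene list (vertical axes, from 0) in clusters 1 to 5 of the members, with circles for the knockout-labelled and squares for the wild-type library and 1 value per library. Cluster 2 carries the fibroblast, smooth muscle and collagen lists, clusters 2 and 5 the immediate early list, clusters 4 and 5 the interferon list, and cluster 3 the hepatocyte list. The 2 libraries lie close together in most panels.

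Stellate cells differ along the axis from portal to central vein. Ngfr, the neurotrophin receptor p75, marks the portal side, and Adamtsl2, a regulator of TGF-beta activity in the matrix, the central side. Ngfr was seen in 46 and 47 members and Adamtsl2 in 43 and 51, with 8 and 13 members holding both. Without cluster 2, which held 74 and 148 of the 135 and 189 Adamtsl2 UMIs, Ngfr was seen in 43 and 37 members, Adamtsl2 in 29 and 30, and both in 5 and 3. Ngfr summed to 74 and 65 UMIs, a ratio of 1.34 (0.946 to 1.90), and Adamtsl2 gave a ratio of 0.839 (0.668 to 1.05). Both intervals held 1. Igfbp3, a portal-side gene and carrier of insulin-like growth factor, held 1844 and 1561 UMIs, a ratio of 1.39 (1.30 to 1.49), of which 964 and 690 were in cluster 5, a ratio there of 1.37 (1.24 to 1.51). In cluster 2 it held 582 and 275 UMIs, a ratio of 2.93 (2.54 to 3.40) that passed the size rule within that cluster, while the ratios in clusters 1, 3 and 4 were 0.851, 0.793 and 0.868. With the endothelial and leukocyte sum at 0 its log2 ratio over all members was -0.11, against 0.47. The 7 portal-side genes had a median log2 ratio of 0.01 and the 7 central-side genes of -0.10, and 0 of either passed the size rule.

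The targeted gene was nearly absent from members of both libraries. Slc22a18 (ENSMUSG00000000154), a membrane transporter of the organic cation transporter family, gave 3 UMIs in 3 knockout-labelled members and 8 UMIs in 7 wild-type members. These sums correspond to 2.39 CPM (exact Poisson interval 0.493 to 6.99) and 5.43 CPM (2.34 to 10.7), a ratio of 0.441 (0.0753 to 1.84) that held 1. After thinning, 0.833% and 1.11% of members carried a UMI, against 0.405% and 0.583% of other leukocytes. Whether these few UMIs were expression or background was not tested. In hepatocytes, 574 and 513 UMIs gave 58.5 and 67.0 CPM, a ratio of 0.874 (0.774 to 0.986). These are 3′ tags, and a tag outside the deleted part does not check the label, so each direction below is that of the library labelled knockout. Of the genes of the title's axis, Ascl2 had 0 and 1 UMIs in members, and Ctnnb1, which encodes β-catenin, 163 and 263 UMIs, a log2 ratio of -0.46. The Wnt targets Axin2 and Nkd1 held 20 and 13 and 234 and 296 UMIs. Of 14 measured Wnt and Hippo responders, 0 passed the size rule and the median log2 ratio was 0.04.

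Over all genes, the summed members of the knockout-labelled and wild-type libraries gave few large differences, the 21 higher and 29 lower calls already given. The ratios of 99.3% of the genes lay between 0.5 and 2, and the median log2 ratio was near 0. Among the 965 genes with at least 500 UMIs, Ifit3 was the sole call, and 5 in all passed 1.5-fold, each higher in the knockout-labelled library: Ifit3, Sntg1, Cxcl10, Isg15 and 9530026P05Rik. Of the 50 called genes, 38 had under 100 UMIs. Without the 1 barcode with the largest count of a gene, often only a few UMIs, 7 of the 21 higher and 15 of the 29 lower calls were kept. For the kept Igf2bp2, Zfp827, Fbxw5, Snap47 and Pgs1 that barcode lay in the library with the lower level. Leaving it out moved their ratios further from 1, so it was no check of those calls. Some of the lost calls only fell under 50 UMIs, with ratios then of 2.70 for Lratd1, 2.37 for Zfp74 and 0.305 for Tmem276, and others passed just inside the ratio limit, such as Csrnp1 at 1.89 and Elovl1 at 0.524. Kirrel3 moved further, to 1.32, and so did Hba-a2 to 1.23, Plxna2 to 0.749, Dpep1 to 0.718 and Tmx4 to 0.711. With the hepatocyte sum at most 5, 31 genes were higher and 36 lower, and 3 and 5 of these were among the calls over all members. Under 12 alternatives each, Ifit3, Hbb-bs, Zbtb16 and Serpina1e were the 4 genes called every time.

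**Figure D4:**
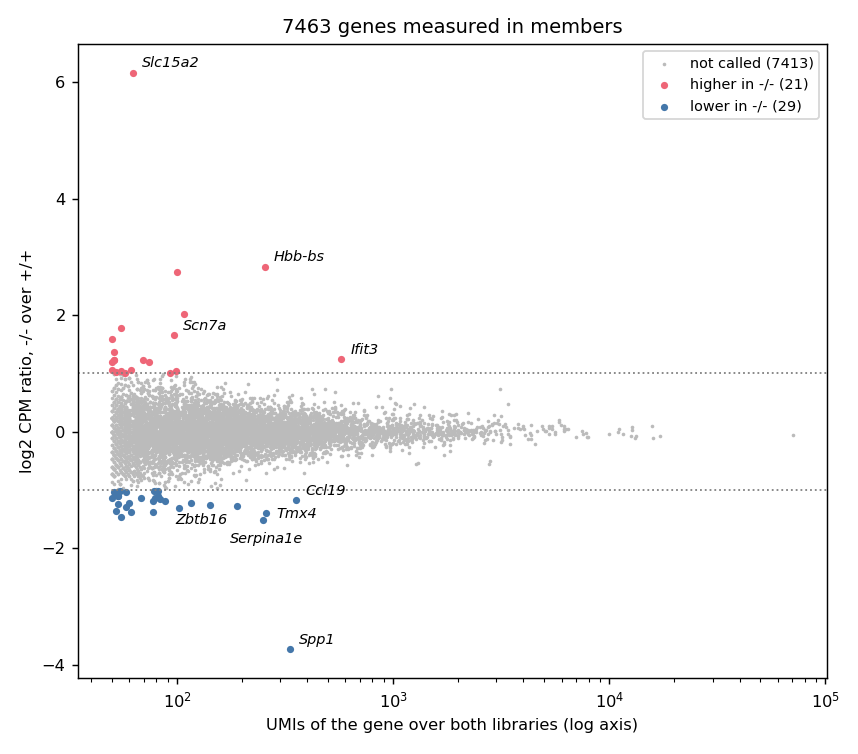
Each point is 1 of 7463 genes, with its UMIs over both libraries (horizontal, log axis) against its log2 CPM ratio of knockout-labelled over wild-type members (vertical). Dotted lines mark ratios of 2 and 0.5, red points the 21 higher and blue points the 29 lower genes. The spread narrows as UMIs rise, and most called genes sit at the low end.

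Ifit3 (ENSMUSG00000074896), an interferon-induced protein with tetratricopeptide repeats, was the most abundant called gene. It gave 384 UMIs in 82 knockout-labelled members and 190 UMIs in 78 wild-type members, 306 and 129 CPM, a ratio of 2.37 (1.99 to 2.84). Of these UMIs, 328 and 118 were in cluster 5, and without the highest barcode, which held 30, the ratio was 2.21. With the hepatocyte sum at most 5 the log2 ratio was 1.37, against 1.25 over all members. In the comparison classes the ratio was 1.74 (1.28 to 2.39) in hepatocytes, with 136 and 61 UMIs, 1.21 in endothelial cells, 1.32 in Kupffer cells and 1.02 (0.772 to 1.35) in other leukocytes. Mesothelial cells held 10 and 2 UMIs, a ratio of 4.32 (0.922 to 40.6). After thinning, 22.1% and 11.9% of members held Ifit3, against 2.53% and 2.08% of other leukocytes.

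Other interferon genes leaned the same way by smaller amounts. Isg15, a ubiquitin-like modifier, held 308 and 226 UMIs, a ratio of 1.60 (1.34 to 1.91). Ifit1 held 178 and 112 UMIs and Oasl2 209 and 164. Ifit2, a close relative, went the other way with 32 and 59 UMIs. The abundant class I genes B2m and H2-K1 were level, with log2 ratios of -0.02 and 0.08. Of 21 interferon response genes, 16 lay above 0 and 1 passed the size rule, with a median log2 ratio of 0.30 beside -0.01 over all genes. The median stayed above 0 under all 12 alternatives (0.05 to 0.33). It was 0.20, -0.25, -0.37, 0.26 and 0.23 in clusters 1 to 5, so it was below 0 in clusters 2 and 3.

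Slc15a2 (ENSMUSG00000022899), a proton-coupled peptide transporter, had the largest ratio. It gave 61 UMIs in 42 knockout-labelled members and 1 UMI in 1 wild-type member, a ratio of 71.7 with a wide interval of 12.4 to 2876. The same contrast stood in every large comparison class, with 222 and 0 UMIs in hepatocytes, 1369 and 0 in endothelial cells, 291 and 2 in Kupffer cells and 734 and 13 in other leukocytes. It was therefore not particular to the members.

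Red cell transcripts were higher in knockout-labelled members. Hbb-bs (ENSMUSG00000052305), an adult beta globin, held 218 and 36 UMIs, a ratio of 7.11 (4.98 to 10.4). One knockout-labelled barcode of cluster 1 held 133 of them, and without it Hbb-bs held 85 and 36 UMIs, a ratio of 2.78 (1.86 to 4.23). Hba-a1, Hba-a2 and Hbb-bt were also called, with 85 and 15, 83 and 24 and 41 and 14 UMIs, and 0 of the 3 were kept without that barcode. Hba-a1 then held 28 and 15 UMIs, under the minimum of 50, at a ratio of 2.20 (1.13 to 4.43). The ratios of Hba-a2 and Hbb-bt fell to 1.23 and 1.43. Globin is not a product of stellate cells, and the 5 red cell genes summed to 344 and 62.4 CPM in members. In hepatocytes they summed to 128 and 50.3 CPM and in endothelial cells to 1412 and 1355 CPM.

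The remaining higher calls were rare transcripts. Scn7a, a sodium channel gene of mesenchymal and glial cells, held 70 and 26 UMIs, all of them in clusters 2 and 3, with 29 in 1 knockout-labelled barcode, and the ratio fell from 3.16 to 1.86 without it. Lratd1 held 36 and 14 UMIs and Csrnp1, an immediate early nuclear protein, 63 and 36. The other higher genes were Zfp74, Spata1, Ppm1e, Mpv17l, Mrnip, Stxbp2, Cyp2c37, Igf2bp2, Pgghg, Pck2, Zfp827 and Kirrel3, each with 50 to 92 UMIs and a ratio of at most 2.57.

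Zbtb16 (ENSMUSG00000066687), a transcriptional repressor induced by glucocorticoids, was lower in knockout-labelled members. It gave 49 UMIs in 40 knockout-labelled members and 140 UMIs in 94 wild-type members, a ratio of 0.411 (0.291 to 0.573). No barcode held more than 3 and 7 of these UMIs, so the difference was spread over members. Cluster 1 held 15 and 62 UMIs, a ratio of 0.264 (0.139 to 0.469), and cluster 5 18 and 26, a ratio of 0.680 (0.351 to 1.29). After thinning, 4.58% and 13.7% of members held a UMI, against 14.2% and 12.9% of other leukocytes, a class that includes cells expressing the gene. Hepatocytes showed the same direction, with 1868 and 2964 UMIs and a ratio of 0.492, and endothelial cells held 50 and 91 UMIs. Kupffer cells and other leukocytes had ratios of 1.36 and 1.12.

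Serpina1e (ENSMUSG00000072849), a plasma protease inhibitor made by hepatocytes, held 57 UMIs in 40 knockout-labelled members and 191 UMIs in 117 wild-type members, a ratio of 0.351 (0.256 to 0.474). Cluster 3, led by hepatocyte genes, held 28 and 74 of these, and cluster 1 10 and 64. The ratio was 0.38 in endothelial cells, 0.26 in Kupffer cells and 0.43 in other leukocytes, and 1.09 in hepatocytes. Among 319 and 489 shallow barcodes rich in Alb, Serpina1e stood at 1105 and 2363 CPM. The difference was therefore seen across the non-hepatocyte classes and in the Alb-rich barcodes. Serpina1e belongs to a family of near-identical copies whose reads the counting could split, so its sums are uncertain.

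Spp1 (ENSMUSG00000029304), which encodes osteopontin, a phosphoprotein of bile duct cells and activated mesenchyme, held 20 and 313 UMIs, the lowest ratio of all (0.0751). One wild-type barcode of cluster 3 held 294 of them, together with 13 UMIs of Epcam and 7 of Sox9, both cholangiocyte genes. Without it, 20 and 19 UMIs were left, a ratio of 1.23 (0.621 to 2.43). The Spp1 call thus rested on that barcode. Tmx4, a thioredoxin-like membrane protein, held 63 and 194 UMIs with 92 in 1 wild-type barcode of cluster 2, and its ratio went from 0.382 to 0.711 without it. Ccl19, a homing chemokine of stromal cells, held 97 and 257 UMIs with 103 in another cluster 2 barcode, and its ratio went from 0.443 to 0.733.

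Several lower genes were carried by the fibroblast and contractile cluster 2. Prrx1, a transcription factor of limb and fibroblast mesenchyme, held 26 and 76 UMIs, of which 18 and 64 were in cluster 2, a ratio of 0.402 (0.247 to 0.635). Creb5, a bZIP transcription factor, held 37 and 104 UMIs, of which 25 and 74 were in cluster 2. A single wild-type barcode of that cluster held 24. Without it the Creb5 ratio went from 0.418 to 0.532 and the call was lost. Of 18 stellate transcription factors measured, Prrx1 was the 1 called, and Hand2, Gata4, Nr2f2 and Tbx20 had log2 ratios of -0.01, -0.13, 0.05 and -0.03. Gsn and Eln, which fibroblasts express highly, held 1056 and 1754 and 1017 and 1751 UMIs, of which 831 and 1643 and 880 and 1648 were in cluster 2. The portal fibroblast list had a median log2 ratio of -0.51 over 12 measured genes with 0 called, and changed sign in 2 of 12 alternatives. Cluster 2 held 21 and 27 members, so these sums describe few cells. Cnn1, a smooth muscle calponin, went the other way with 57 and 18 UMIs, in 4 and 2 barcodes. In cluster 3 the portal fibroblast markers also went the other way, with sums of 2008 and 112 CPM. Gsn, Mgp, Col1a1, Col1a2 and Col3a1 were called higher there. The markers summed to 174 and 98.1 CPM in cluster 1, 251 and 433 CPM in cluster 4 and 307 and 321 CPM in cluster 5.

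The remaining lower calls were low in count. Srebf1, the activator of fatty acid synthesis genes, held 19 and 49 UMIs, a ratio of 0.456 (0.253 to 0.788), and was the 1 gene called of 17 measured genes of lipid droplets and lipid uptake, whose median log2 ratio was 0.00. Plin2, the coat protein of lipid droplets, held 137 and 161 UMIs. Gli2, a Hedgehog effector, held 15 and 38 UMIs. The other lower genes, Ntmt1, Nedd1, Gm49431, Tmem276, Pgs1, Ptgr2, Snap47, Fam180a, Fbxw5, Tpcn1, Txndc16, Plxna2, Gpatch11, Creld1, Tbc1d14, Lsm2, Fbxo25, Elovl1, Ppp1r13b and Dpep1, had 50 to 116 UMIs and ratios of 0.364 to 0.495.

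Stress genes showed small shifts in opposite directions. Heat shock genes leaned lower in knockout-labelled members, with 3 of 13 above 0, 0 called and a median log2 ratio of -0.21. Hspa1a and Hspa1b, the inducible Hsp70 genes, held 478 and 816 and 470 and 807 UMIs, and Hspb1 67 and 140 and Dnajb1 149 and 241. The constitutive Hspa8 was level, with 661 and 799 UMIs and a log2 ratio of -0.04. The median was below 0 in all 5 clusters and under all 12 alternatives (-0.32 to -0.07). Immediate early and dissociation genes leaned higher, with 19 of 23 above 0, 0 called and a median of 0.14 (0.02 to 0.38 under the alternatives). Fos held 2878 and 2952 UMIs, Egr1 1484 and 1429, and Klf6 308 and 262. In cluster 3 the same list went the other way, with 1 of 18 above 0, 8 called lower and a median of -1.46. Unfolded protein response genes had 4 of 17 above 0 and a median of -0.08.

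**Figure D5:**
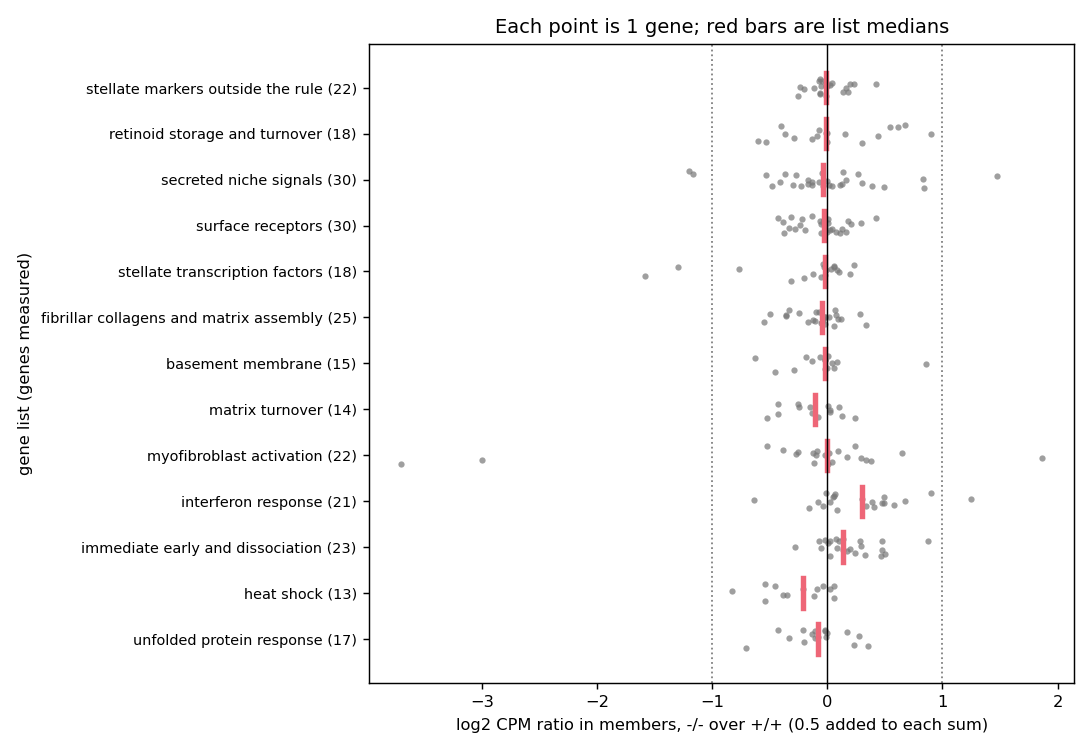
Each point is 1 gene with at least 20 UMIs over both libraries, placed by its log2 CPM ratio of knockout-labelled over wild-type members (0.5 added to each sum), in 13 gene lists with the number of genes measured in brackets. Red bars are list medians and dotted lines mark ratios of 0.5 and 2. Identity, receptor and matrix lists centre near 0, the interferon list on 0.30 and the heat shock list on -0.21.

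Cluster 5, whose members were deep and carried both stellate and interferon-induced transcripts, was compared alone as an analysis chosen after seeing the data. Its members held 456636 and 448250 UMIs. Of 3434 genes past the same limits there, 40 (1.16%) were higher and 22 (0.641%) lower in the knockout-labelled library. Of these, 2 and 0 were among the calls over all members. The 2 shared genes were Ifit3 and Csrnp1. Ifit3 held 328 and 118 UMIs, a ratio of 2.73 (2.20 to 3.40), and was seen in 86.5% and 62.7% of the cluster's members. Cxcl9, a T cell chemokine induced by interferon gamma, held 81 and 6 UMIs, a ratio of 13.3 (5.83 to 37.2), in 13.5% and 5.88% of the cluster's members, so few barcodes carried it. Socs1, the feedback inhibitor of cytokine signalling, held 70 and 21 UMIs, Gbp2, a guanylate-binding protein, 68 and 25, and Nlrc5, the activator of class I genes, 39 and 19. Gbp2 was seen in 36.5% and 37.3% of the cluster's members, so its higher sum did not come from a larger share of members. Of the 21 interferon genes measured in the cluster, 16 lay above 0 and 2, Ifit3 and Gbp2, were called. The syntrophin gene Sntg1 held 827 and 368 UMIs, a ratio of 2.21 (1.95 to 2.50), and both position genes Ngfr and Adamtsl2 were called higher, with 49 and 20 and 43 and 21 UMIs. Among the lower genes, Hspb1 held 17 and 46 UMIs, the nuclear RNA Neat1 70 and 165, and Smad7, the inhibitor of TGF-beta signalling, 54 and 110. Because cluster 5 was defined partly by interferon and heat shock genes, these values describe the cluster.

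The other clusters held fewer UMIs. The share of genes called was larger in clusters 2, 3 and 4 than in cluster 5, in both directions. In cluster 1, 22 genes were higher and 19 lower of 2987 past the same limits, and in cluster 2 29 and 59 of 2087. In cluster 3 they were 22 and 24 of 754, and in cluster 4 16 and 25 of 919. Cell division genes were rare throughout, with 15 genes summing to 170 and 176 CPM in members, against 1159 and 697 CPM in other leukocytes.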

How the data were processed

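Single-cell RNA sequencing of liver tissue gave 2 libraries, 1 per genotype. The authors' deposited values are raw UMI counts per gene and barcode, not normalized, over 33696 features. Per the labels, the kit was Chromium Single Cell 3′ v3. Per the file headers, Cell Ranger 8.0.1 wrote the matrices. STAR and mm10 stand in the submitters' processing notes beside Cell Ranger. The counting of multi-gene reads is not given in the sources used here.

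For each library, counts summed over members were divided by the members' total and given per 1000000 UMIs (CPM). The libraries held 103478998 UMIs in 11741 barcodes (knockout-labelled) and 105556354 UMIs in 12796 barcodes (wild-type). Ratios and shares carry exact Clopper-Pearson intervals and CPM exact Poisson intervals, at 95%. They cover counting error only. With 1 library per group no p-value was given. Log2 ratios had 0.5 added to each sum, and list medians used genes with at least 20 UMIs. The 15 genes that choose members were never counted as called. Hepatocytes needed a hepatocyte sum of at least 50, endothelial cells Stab2 and Ptprb of at least 5 and Kupffer cells Clec4f of at least 3. Other leukocytes needed Ptprc of at least 2 and mesothelial barcodes Msln and Upk3b of at least 3. Each class had low sums for the rest, with these exceptions. Mesothelial barcodes had no limit on the choosing genes, Stab2 or Ptprb, and the other classes none on Msln and Upk3b. Alb-rich barcodes were non-members with over 5% of their UMIs in Alb, Apoa1, Ttr, Serpina1a, Serpina1c and Fgb and at most 2 endothelial and leukocyte UMIs.

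Members of both libraries were clustered together by the Leiden method (scanpy 1.11.5, igraph 0.11.9) on 1500 variable genes, 20 components and 15 neighbours at resolution 0.5, without integration. Doublets were scored with Scrublet in scanpy (expected rate 8%, 30 components), and called members were kept except in an alternative. Free RNA was not subtracted. Shares of cells were also taken after thinning to 1528 UMIs, the 20th percentile of members. Python 3.11.15, numpy 2.4.6, scipy 1.17.1 and pandas 2.3.3 were used, and the counting steps were tested on simulated data.

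Genes were named by a rule: the 12 largest ratios each way, list members past the size rule or otherwise the 2 with the most UMIs, the choosing genes, Slc22a18, the 15 most member-restricted genes with at least 500 UMIs and the 6 leading genes of each cluster. Further members of the 32 gene lists were named after their values were seen. The members, lists and rules were chosen with earlier results of these data known. Alternatives changed the member limits, scaling, cell weights, size rule and cluster make-up, and 1 barcode was left out for each called gene.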

Additional observations from a re-analysis of the deposited data

How the results depend on the processing

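The share of members was 2.47% and 2.85%. It was 1.75% and 2.20% with the hepatocyte sum at most 5, 2.14% and 2.22% with the choosing sum at least 10, 1.57% and 1.61% with the endothelial and leukocyte sum at 0, and 2.33% in the wild-type library without cluster 3. With the hepatocyte sum at most 5, fibroblast-like wild-type members were 0% (up to 1.34%) and smooth-muscle-like ones 2.92%. The 21 genes higher in knockout-labelled members became 47 with the endothelial and leukocyte sum at 0, 34 with deep stellate barcodes added, 34 with cells weighted equally and 36 without fibroblast-like and smooth-muscle-like members. They became 84 from 20 UMIs, 4 from 100 UMIs, 158 from a ratio of 1.5 and 40 in cluster 5 alone. The 29 lower genes became 18 with the endothelial and leukocyte sum at 0, 44 with deep stellate barcodes added, 70 from 20 UMIs, 8 from 100 UMIs, 44 without a minimum against other classes and 134 from a ratio of 1.5. The cause of these changes was not tested, apart from the looser and stricter size rules, which change the number of genes by construction. Among the 50 called genes, direction turned for Tmx4 at a log2 ratio of 0.32 with the endothelial and leukocyte sum at 0, for Ccl19 at 0.084 with the hepatocyte sum at most 5, for Dpep1 at 0.18 as the highest of its 12 alternatives, and for Spp1 at 0.29 without its highest barcode. Of 1440 values of 120 named genes under 12 alternatives, 1241 moved by less than counting error, 197 moved by more and 2 turned a call. The alternatives that added deep barcodes, dropped cluster 3, gave clusters the same weights, added Alb-rich barcodes as a class, took clusters alone or left out 1 barcode were chosen after seeing the data. No paired analysis was possible because each genotype had 1 library. Depth limits rare genes: 50 UMIs over both libraries was the least that could be called.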
